A study of Arabidopsis thaliana with 48 samples.

Results

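Of the 32833 genes measured, 125 had lost about 50% or more of their transcripts in each of 12 stress treatments of Arabidopsis seedlings, whether the stress was salt, paraquat, strong light, heat or 1 of 8 combinations of these. The members were chosen from the measured values themselves. A gene had to reach a mean of at least 20 normalised counts in Control, and the difference of log2(mean + 1) from Control had to be -1 or lower in every treatment other than Salt + PQ + HL, PQ + HL + HS and the mix of all 4 stresses (Salt + PQ + HL + HS). Of the 20401 genes that reached the Control minimum, the 125 made up 0.613%. Because these contrasts with Control picked the genes, their values are given as a description and no test was applied to them.

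All libraries came from wild-type Col-0 seedlings 9 to 10 d old, at least 100 of them to a sample, in 3 biological replicates per group, so that 48 libraries fell into Control and 15 treatments. Salt was 50 mM NaCl and PQ was 0.05 µM of the herbicide paraquat, both supplied in the medium, and HL and HS were light raised from 50 to 700 µmol m-2 s-1 and temperature raised from 21 to 33°C, each for 1.5 h. Control seedlings had neither addition and stayed at the lower light and temperature, and a combined treatment carried every stress in its name. Whole seedlings were used, so fewer cells of a type and less RNA per cell cannot be told apart.

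The libraries held 67888254 to 87569857 reads on genes (median 76882710). The 3 treatments outside the rule stood close to Control over all genes, in that their quartiles of the log2 difference lay between -0.17 and 0.14, against -0.69 and 0.52 over the other 12. HSP101, a chaperone gene that heat induces in plants, was 16.3-fold of Control in HS and 1165-fold to 1810-fold in the 4 combinations of HS with PQ or HL that the rule used. It was only 1.03-fold in the libraries labelled PQ + HL + HS and 1.04-fold in those labelled Salt + PQ + HL + HS, although both labels name heat. It was 1.24-fold in Salt + PQ + HL, although it was 142-fold in PQ and 55.2-fold in Salt, whose labels name no heat either. The 9 libraries of these 3 treatments are therefore called by their labels, and what set them near Control was not tested.

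Several of the processes behind the member names are well known. Roots of Arabidopsis take up iron by reducing ferric iron at the surface with FRO2 and importing it with IRT1, helped by secreted coumarins, and this machinery is switched on when iron is short. Glucosinolates are sulphur-rich defence compounds of the cabbage family, made in part by lengthening methionine, carried between organs by GTR-type transporters and broken down by myrosinases. Triterpenes are made by cyclases and then modified by cytochrome P450 enzymes whose genes can lie side by side in the genome.

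Among members with a Control mean of at least 200, the iron uptake genes IRT1, FRO2 and AT3G12900 were all within the 10 lowest median differences. Some members below that mean, such as SWEET14 at -2.96, had a lower median than FRO2 at -2.89. They are shown first with the 250 bases before their annotated starts, read from TAIR10.1 (RefSeq) 5′ to 3′ on the strand of the gene, so that genes that moved together can be compared by sequence. Capitals mark any match to the 10 motifs counted further on. The windows are chr4:10707094-10707343 on the plus strand, chr1:208745-208994 on the plus strand and chr3:4104213-4104462 on the plus strand.
IRT1: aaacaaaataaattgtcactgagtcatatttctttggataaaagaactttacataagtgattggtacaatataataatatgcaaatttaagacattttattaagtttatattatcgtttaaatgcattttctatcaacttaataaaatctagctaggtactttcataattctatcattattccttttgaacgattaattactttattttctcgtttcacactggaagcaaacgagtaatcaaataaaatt
FRO2: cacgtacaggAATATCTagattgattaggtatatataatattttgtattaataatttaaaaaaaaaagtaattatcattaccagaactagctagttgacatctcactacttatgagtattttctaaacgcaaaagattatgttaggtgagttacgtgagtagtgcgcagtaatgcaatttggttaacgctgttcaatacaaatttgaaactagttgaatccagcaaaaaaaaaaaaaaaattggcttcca
AT3G12900: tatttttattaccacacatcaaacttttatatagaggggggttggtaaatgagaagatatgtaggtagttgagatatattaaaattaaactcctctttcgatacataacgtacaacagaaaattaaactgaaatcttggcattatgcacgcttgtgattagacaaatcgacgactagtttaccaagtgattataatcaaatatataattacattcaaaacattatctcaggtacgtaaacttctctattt
The capitals in FRO2 are the core of the evening element, AATATCT, and the other windows held none of the 10 motifs.

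IRT1, the iron importer of the root epidermis, gave 6923, 7285 and 7666 normalised counts in the Control libraries. Over the 36 libraries of the 12 treatments its lowest, median and highest values were 274, 795 and 3526, reached by a Salt + PQ library at the low end and an HL + HS library at the high end. Every one of the 36 libraries lay below every Control library, and the treatment means ran from 4.93% to 40.3% of Control. In the libraries labelled PQ + HL + HS it gave 5125, 4211 and 4027, in those labelled Salt + PQ + HL 6410, 6895 and 7021, and in those labelled Salt + PQ + HL + HS 8090, 7594 and 6821. Only the first of these groups lay wholly below Control.

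FRO2, the ferric reductase that works with IRT1, gave 2373, 2480 and 2934 in Control and 156, 332 and 1325 as the lowest, median and highest of the 36. Its means in the 12 treatments were 6.41% (PQ) to 30.1% (Salt + HL) of Control, and no treated library of these reached Control. The libraries labelled PQ + HL + HS were at 1925, 1525 and 1417, while all 6 libraries of the other 2 labels lay between 3011 and 3463 and thus above the highest Control. AT3G12900 encodes scopoletin 8-hydroxylase, which makes the coumarin fraxetin under iron shortage. It gave 209, 252 and 293 in Control, and the median of the 36 libraries was 6.9, with 0 in libraries of Salt, PQ and PQ + HS and 216 in 1 Salt + HL + HS library that fell within the Control range. Its median difference over the 12 treatments was -4.65 on the log2 scale, the lowest of all 125.

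**Figure D1:**
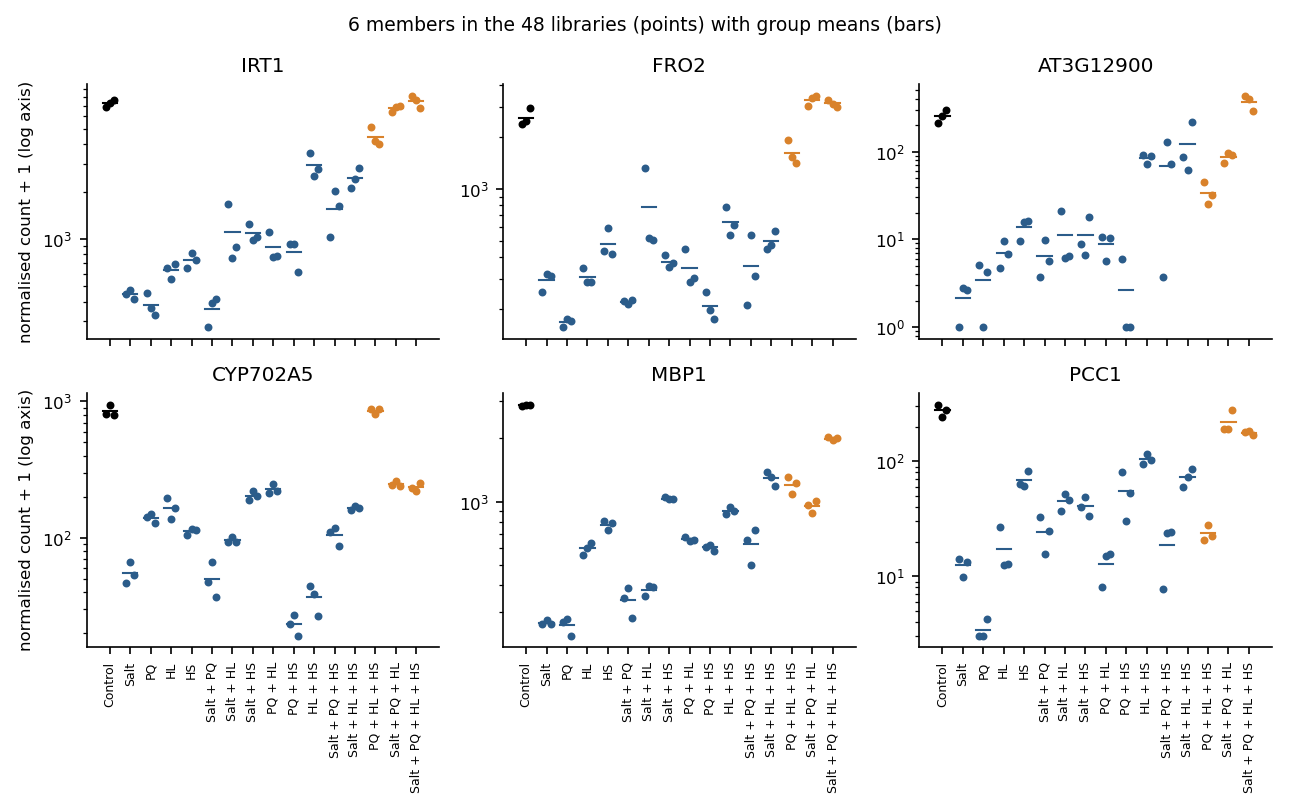
Normalised counts plus 1 (log axis) of 6 members in all 48 libraries (points) with the group means (bars), Control in black, the 12 treatments of the rule in blue and the 3 others in orange. IRT1 lies at 6923 to 7666 in Control and at 274 to 3526 in the blue groups, and PCC1 separates the 3 orange groups, at 19.9 to 26.8 in PQ + HL + HS and 167 to 277 in the other 2.

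Other genes of the iron deficiency response were followed through a list of 21, of which 20 reached the Control minimum. IRT1, FRO2 and AT3G12900 were the members among them. A difference of -1 or lower in at least 6 of the 12 treatments was found for 10 of the 20, against 6.96% of all 20401 genes, and 4 reached it in no treatment, against 74.2%. The 3 members are among the 10 by the rule, and members on the lists below are counted likewise. These counts use the contrasts that chose the members, and the lists were chosen with earlier results of these data known. They are a description and were not tested. The median of the genes' median differences was -0.94 on this list and -0.03 over all genes. CYP82C4, which converts fraxetin to sideretin, missed the set with a largest difference of -0.77 and a median of -2.53, and FIT, the transcription factor above IRT1 and FRO2 (FRU in the annotation), had a median of -1.61 and a largest difference of -0.81. BTS, an E3 ligase that restrains the response, did not take part in the loss, with differences of -0.15 to 0.29.

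Marker sums of root cells were read beside these root genes. The sum of 5 endodermis and stele markers was 50.6% to 68.1% of Control in PQ + HS and HL + HS, each with or without Salt, and 80.1% to 111% in the other 8 treatments. It was 102% to 109% in the 3 treatments outside the rule. Of 4 epidermis and root tip markers, the glucosidase gene PYK10 made up 99.4% of the summed Control level, so they are given one by one. PYK10 was at 26.8% to 54.1% of Control in those 4 treatments and MYB66 at 27.3% to 44.8%, whereas GL2 was at 108% to 165% and WOX5, the lowest of them in Control, at 170% to 609%. In the other 8 treatments PYK10 was at 50.3% to 106%, MYB66 at 44.7% to 84.7%, GL2 at 78.6% to 148% and WOX5 at 68.8% to 158%. The lower levels of PYK10 and MYB66 were thus not confined to those 4 treatments. The sum of the 9 root hair markers ran from 33.4% to 302% over the 12 and that of the 6 green leaf markers from 72.7% to 120%. Single markers in these sums went apart. In Salt, RHD6 was at 89.0% and EXPA7 at 565% among the root hair markers, and RBCS1A at 65.7% and RCA at 133% among the green leaf markers. None of the 24 markers was at 0 in all libraries of a group. IRT1 was at 4.93% of Control in Salt + PQ, where the endodermis and stele sum was 104.5%, PYK10 was at 50.3%, MYB66 at 44.7%, WOX5 at 68.8% and GL2 at 121.8%. With those 4 treatments left out of the rule, an alternative chosen after seeing the data, 138 genes qualified. The 125 were among them by construction, since a rule with fewer conditions keeps every member. The part of root cell content in the values was not tested.

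A few members with roles in nitrogen use are named after their values were seen. The list of 19 genes of nitrate uptake and assimilation held no member. Of the 18 that reached the Control minimum, 4 were at -1 or lower in at least 6 treatments and 11 in none. Over all genes these shares were 6.96% and 74.2%. The median of gene medians was -0.13 on the list and -0.03 over all genes. AMT1;3, a high-affinity ammonium transporter of roots, gave 1826, 1839 and 1892 in Control and 132, 364 and 687 as the lowest, median and highest of the 36. RFNR2, the root ferredoxin-NADP+ reductase that supplies electrons for nitrite reduction, had means of 25.7% to 47.5% of Control, a narrow span. GLN1;5, a cytosolic glutamine synthetase, and AT5G38820, an amino acid transporter of the annotation, had median differences of -1.59 and -3.16. AT5G38820 was 1 of the 2 members at -2 or lower in each of the 12 treatments, the other being AT3G01260, a galactose mutarotase-like gene.

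GTR2, a glucosinolate transporter, was abundant, with 4440, 4298 and 4420 in Control and 698, 1669 and 1999 as the lowest, median and highest of the 36. IPMI1, the small subunit of an isopropylmalate isomerase that lengthens methionine, gave 1638, 1770 and 1763 in Control, and its treatment means ran from 4.77% in Salt + PQ + HS to 46.9% in HL. MBP1, a myrosinase-binding protein, gave 2841, 2881 and 2875 in Control and was lowest in PQ, at 8.97%. Of a list of 20 genes of aliphatic glucosinolate synthesis, 19 reached the Control minimum and IPMI1 was the single member. Of these 19, 14 were at -1 or lower in at least 6 of the 12 treatments and 1 in none, with a median of gene medians of -1.07, beside 6.96%, 74.2% and -0.03 over all genes.

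The members' annotations held 6 cytochrome P450 genes (4.8% of members, 0.85% of the genes that reached the minimum), 2 glutathione S-transferases (1.6% and 0.23%), 3 UDP-glycosyltransferases (2.4% and 0.57%), 10 cell wall enzymes or proteins (8.0% and 2.52%) and 9 transporters (7.2% and 3.25%). No NLR disease resistance gene was among them (0.77% of all), and 2 transcription factors were found by the words of the annotation (1.6% and 4.72%). Among the P450 genes, CYP702A5 had a median difference of -2.96, with 805, 944 and 788 in Control and 18.2, 111 and 248 as the lowest, median and highest of the 36. GSTU8 gave 5815, 5850 and 5750 in Control and had a median difference of -1.23, the smallest loss of all members. GSTU25 stood at 10.6% in Salt and 48.0% in HL.

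Cell wall genes were led by GH9C2, an endoglucanase, with 6709, 6949 and 6967 in Control and 919, 2204 and 3513 as the lowest, median and highest of the 36. XTH20, which cuts and rejoins xyloglucan, had a median difference of -2.88, and EXPA17, an expansin that loosens walls, one of -2.70. EXPA17 varied more in Control (131, 240 and 171) than XTH20 (480, 501 and 481), and its coefficient of variation was 30.5%. Neither gene was on the list of 23 expansins and xyloglucan enzymes, none of which was a member, and 5 of those 23 were at -1 or lower in at least 6 treatments, beside 6.96% of all genes.

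Several members are known from defence. WRKY60, a transcription factor that acts with WRKY18 and WRKY40, gave 606, 703 and 640 in Control and 81.7, 193 and 293 as the lowest, median and highest of the 36. It was the only member among 19 measured defence WRKY genes, 4 of which were at -1 or lower in at least 6 treatments, beside 6.96% of all genes, and 13 in none. The lists for salicylic acid (4 of 15), surface receptors and immune signalling (3 of 16) and camalexin and indolic metabolism (4 of 12) held no member but had these counts at -1 or lower in at least 6 treatments. The lists for jasmonate (0 of 18) and ethylene (0 of 17) synthesis and response also held no member. Their medians of gene medians were 0.34 and 0.97. WRKY18 and WRKY40 stood above Control in all 12, with lowest differences of 0.58 and 1.63. PCC1, a defence gene under the circadian clock, gave 309, 240 and 277 in Control and 2.0, 30.5 and 114 as the lowest, median and highest of the 36, and 61.8% of its exon sequence was unique in the genome at 50 bases, so part of its reads may be shared with close copies. LURP1, a gene that responds to the downy mildew pathogen, had a median difference of -2.73. ARR15, a type-A regulator that answers cytokinin, was low throughout (22.4, 38.9 and 27.9 in Control) and was the only member of 9 measured type-A genes, of which 1 was at -1 or lower in at least 6 treatments.

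The most abundant member per length was AT3G28220, a TRAF-like gene, at 5555 normalised counts per kilobase of exon in Control, followed by IRT1 at 4662, AT5G48490, a lipid-transfer-like gene, at 4427, GSTU8 at 4272 and GSTU25 at 4110. AT3G28220 gave 9067, 8787 and 8612 in Control, and its means were 9.35% (PQ + HS) to 39.7% (HL) of that. AT5G26290 and AT4G01390 were further TRAF-like members, so that 3 of the 34 measured genes with this annotation belonged to the set. This family, the 4 C1 domain genes of 91 and the 7 pentatricopeptide or tetratricopeptide repeat genes of 505 were singled out after their values had been seen. In that order they made up 2.4%, 3.2% and 5.6% of members, against 0.17%, 0.45% and 2.49% of the genes that reached the minimum. GLL22, a GDSL lipase-like gene, and AT1G29090, a cysteine proteinase, completed the deep losses among abundant genes, with median differences of -2.86 and -2.85.

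Over all members the Control mean ran from 20.6 to 8822 with a median of 123, against 1013 over all genes that reached the minimum, and the coefficient of variation of the 3 Control libraries had a median of 9.46%. The members' median differences ran from -4.65 to -1.23. In 123 of the 125, all 36 libraries of the 12 treatments lay below all 3 Control libraries. The rule used the means of these same libraries, so this count follows largely from the choice of members. Its share over all genes was not computed. A difference of -2 or lower in the median was reached by 57 members and one of -3 or lower by 11. Members spread over the 5 chromosomes in shares of 13.6% to 25.6%, near those of all genes. The opposite pattern, a difference of 1 or higher in each of the 12, was met by 405 genes.

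**Figure D2:**
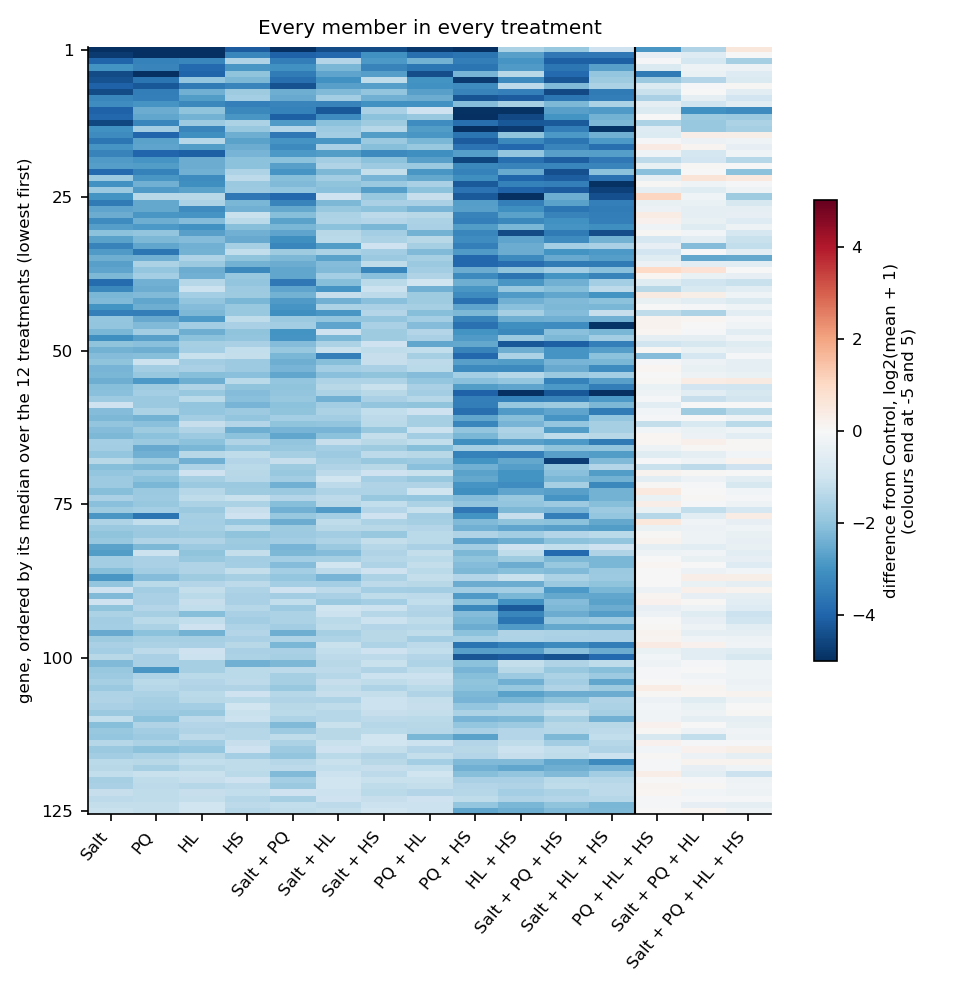
Log2 difference from Control for each of the 125 members (rows, lowest median first) in each treatment (columns), with the 3 treatments outside the rule to the right of the line. The blue of the 12 columns is deepest in the 4 columns that hold PQ + HS or HL + HS, each with or without Salt, where 89 of the 125 members had their lowest value.

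The treatments differed in depth. The members' median difference was -2.71 in PQ + HS, -2.44 in HL + HS, -2.30 when Salt joined HL + HS and -2.42 when it joined PQ + HS. Salt, Salt + PQ and PQ followed at -2.12, -2.05 and -1.90, and HL, HS, Salt + HL, PQ + HL and Salt + HS lay between -1.74 and -1.47. All genes also spread most in PQ + HS and HL + HS, each with or without Salt. Their lower quartile was -0.69 to -0.60 there and -0.44 to -0.29 in the rest of the 12, so the depth was not particular to the members. The lowest value of a member fell in PQ + HS for 32, in HL + HS for 24, and in these treatments with Salt for 16 and 17. The value nearest the threshold fell in Salt + HL for 28, in Salt + HS for 25, and in HS and PQ + HL for 19 each.

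Adding a stress did not always deepen the loss. In PQ + HS, 95 members (76.0%) were below both PQ and HS, against 37.6% of all genes, and 8 (6.4%) were above both, against 34.8%. In HL + HS, 86 (68.8%) were below both single stresses and 21 (16.8%) above both, against 41.0% and 37.5%. In Salt + HS the order turned, with 12 (9.6%) below and 77 (61.6%) above both, against 26.8% and 28.5% of all genes. PQ + HL likewise had 8.0% of members below and 60.0% above, against 40.3% and 42.1%, and Salt + HL had 12.8% and 58.4%, against 37.0% and 41.0%. Salt + PQ was near all genes, with 32.0% of members below and 35.2% above, against 35.8% and 37.0%. All these comparisons use the contrasts that chose the members and share the Control libraries. By the rule every member was lowered, whereas in PQ + HS 51.9% of all genes were below Control. The shares of members and of all genes are therefore not like for like. Quartiles of all genes were -0.60 and 0.52 in PQ + HS, -0.32 and 0.31 in HS and -0.30 and 0.28 in Salt + HS. The part of this spread in the members' shares was not tested.

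**Figure D3:**
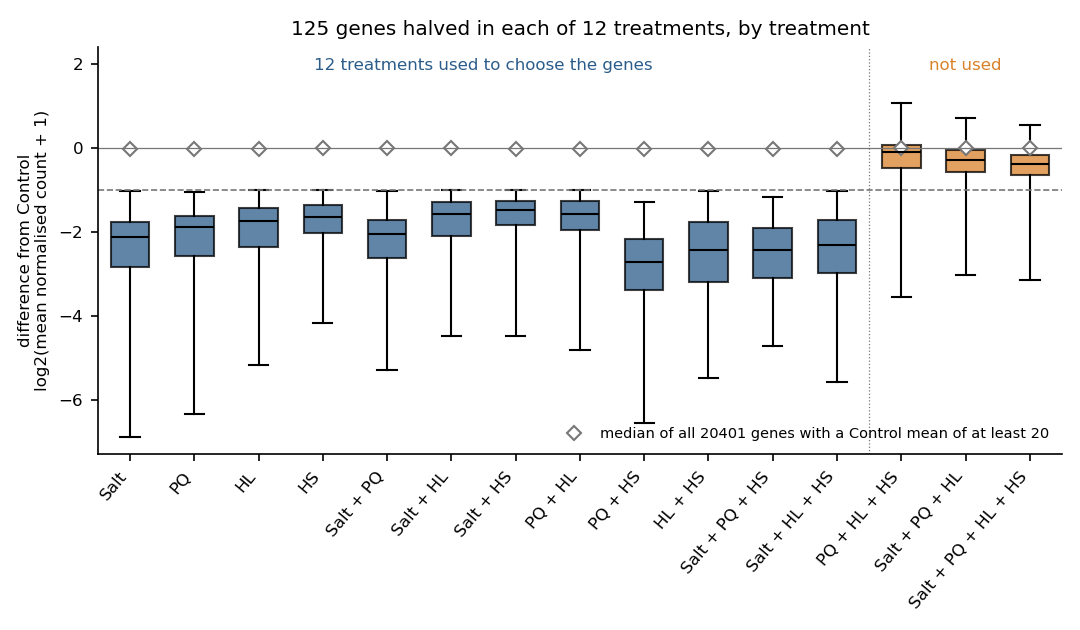
Log2 difference from Control of the 125 members by treatment, with boxes for quartiles, lines for medians and whiskers to the extremes, blue for the 12 treatments of the rule and orange for the others, and diamonds for the median of all 20401 genes. Medians run from -2.71 to -1.47 in blue and from -0.39 to -0.11 in orange, and the diamonds stay near 0.

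The edge of the set was not a gap. Just inside it were AT3G20160 at -1.0023 in Salt + HL, AT2G27610 at -1.0033 in HL and AT2G03260 at -1.0033 in Salt + HS, as their largest differences. Just outside were AT2G48080 at -0.9996 in Salt + HL, AT4G30650 at -0.9987 in HL + HS and SCPL27 at -0.9973 in Salt + HS. A further 99 genes reached -1 in 11 of the 12 treatments, and the treatment missed was Salt + HL for 28 and Salt + HS for 24.

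Some members were neighbours in the genome. Within 20000 bases of each other lay 8 consecutive pairs of members with 15 genes among them. The longest run was on chromosome 5, where AT5G36130, CYP716A2 and PEN3 followed each other with no other annotated gene between them. PEN3 here is a triterpene synthase gene, and the other 2 are cytochrome P450 genes. All are on the minus strand, at chr5:14209088-14209922, chr5:14212174-14213293 and chr5:14220634-14226211 of TAIR10.1. Their windows of 250 bases before the start are chr5:14209923-14210172, chr5:14213294-14213543 and chr5:14226212-14226461, shown as above.
AT5G36130: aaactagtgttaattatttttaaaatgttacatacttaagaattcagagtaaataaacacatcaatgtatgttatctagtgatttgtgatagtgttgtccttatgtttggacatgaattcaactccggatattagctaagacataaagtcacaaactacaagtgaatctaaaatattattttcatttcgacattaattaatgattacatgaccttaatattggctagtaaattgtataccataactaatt
CYP716A2: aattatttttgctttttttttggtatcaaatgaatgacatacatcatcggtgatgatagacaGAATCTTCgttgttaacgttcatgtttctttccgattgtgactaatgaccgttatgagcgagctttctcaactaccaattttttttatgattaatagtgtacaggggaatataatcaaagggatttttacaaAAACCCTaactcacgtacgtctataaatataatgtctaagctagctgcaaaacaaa
PEN3: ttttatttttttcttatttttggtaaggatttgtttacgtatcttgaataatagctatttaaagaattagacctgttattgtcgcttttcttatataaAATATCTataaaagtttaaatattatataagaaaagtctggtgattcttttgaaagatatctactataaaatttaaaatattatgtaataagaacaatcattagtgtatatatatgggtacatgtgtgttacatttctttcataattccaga
The capitals in CYP716A2 are GAATCTTC, which fits the heat shock element GAANNTTC, and AAACCCT, the telo-box core, and those in PEN3 are the evening element core.

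CYP716A2 gave 58.3, 63.2 and 47.8 in Control and 0, 5.5 and 26.8 as the lowest, median and highest of the 36. PEN3 gave 47.1, 47.8 and 42.3 in Control with a median of 7.1, and AT5G36130 gave 33.6, 37.3 and 37.5 with a median of 3.4. All 3 genes had their smallest loss in HS, at differences of -1.78, -1.24 and -1.71 in that order. Labelled PQ + HL + HS, the 3 genes were at 44.7%, 50.3% and 30.6% of Control, and labelled Salt + PQ + HL at 103%, 93.6% and 70.2%.

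**Figure D4:**
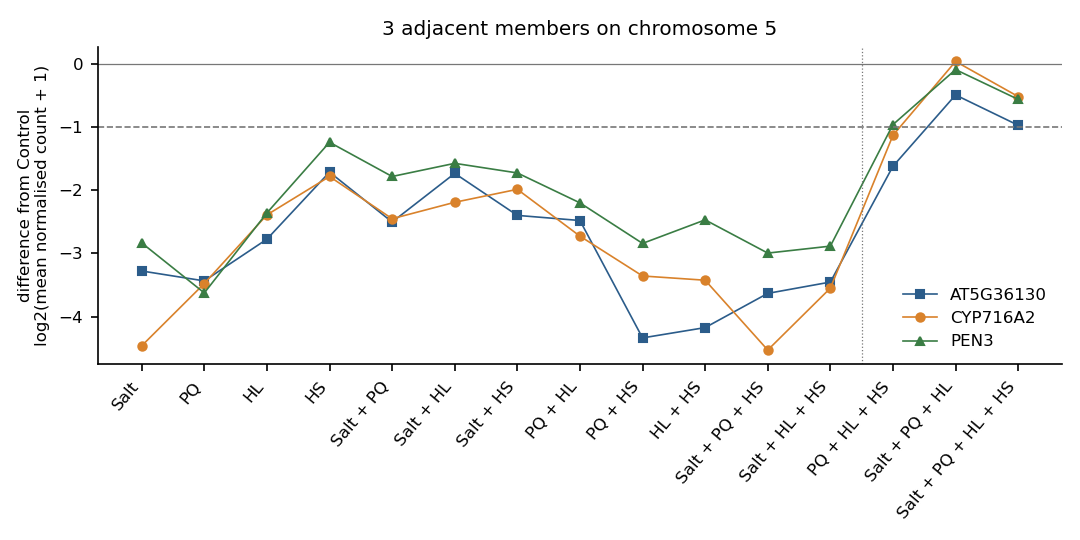
Log2 difference from Control of AT5G36130, CYP716A2 and PEN3, adjacent genes of chromosome 5, in the 15 treatments, with dashes at -1 and the 3 treatments outside the rule to the right of the dotted line. All 3 lie nearest Control in HS among the 12, at -1.78 to -1.24, and at -1.62 to -0.96 in PQ + HL + HS.

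Another pair was AT1G64910 and AT1G64920, UDP-glycosyltransferase genes 453 bases apart, with median differences of -2.78 and -2.51. CYP702A2 and CSLB06 on chromosome 4 enclosed CYP702A3, which was at -1 or lower in all 12 treatments but missed the Control minimum, with a mean of 11.2. The ubiquitin hydrolase-related genes AT1G52430 and AT1G52450 had 73.2% and 69.5% unique exon sequence at 50 bases and CSLB06 had 74.9%, so close copies may share their reads. At least 90% was unique in 120 members. Another gene on the opposite strand overlapped 20 members, GTR2 and AT4G01390 among them, and since the strand of the libraries was not stated, reads of such partners could not be told apart.

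The windows of the members were near those of other genes in base composition, with a median GC content of 30.4% against 31.2% over 20320 genes. Both strands were searched for 10 motifs, none of which contains another. The W-box forms TTGACC and TTGACT were present in 11.2% and 17.6% of member windows and in 12.2% and 18.8% of all, the G-box CACGTG in 8.0% and 7.5%, the heat shock element GAANNTTC in 12.0% and 9.3%, and the telo-box core AAACCCT in 6.4% and 6.3%. The evening element core AATATCT (8.0% and 10.2%), the DRE core CCGAC (8.8% and 12.8%) and the GATA element AGATAG (5.6% and 10.4%) were the others, and no difference in these shares was tested. The site II element TGGGCC was in 5 of 125 windows (4.0%) against 16.1% of all, and the GCC-box GCCGCC in 0 against 2.0%.

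The 3 treatments outside the rule show the same genes in combinations that had not chosen them. Their treated libraries were not used by the rule, but the Control libraries were, so differences from Control are given without a test. A difference of -1 or lower was found for 15 members (12.0%) in PQ + HL + HS, against 0.588% of all genes. The count was 14 (11.2%) for Salt + PQ + HL, against 1.31% of all genes, and 17 (13.6%) for all 4 stresses, against 1.47%. The last count fell to 10 with a pseudocount of 10. The members' medians were -0.11, -0.30 and -0.39. In 95 members no such difference was found in any of the 3, and in 103 all 3 treatments lay nearer Control than every one of the 12. The rule held members at -1 or lower in each of the 12, and these 3 treatments stood close to Control over all genes. The count of 103 therefore follows in part from how the members were chosen. The counts of 95 and 103 were taken over the members only. Their shares over all genes were not computed, so neither count can be set against all genes. All 3 libraries lay below all Control libraries for 44, 69 and 75 members. These were 35.2%, 55.2% and 60.0% of members, against 20.5%, 28.0% and 30.3% of all genes. They lay above for 20, 12 and 9, or 16.0%, 9.6% and 7.2% of members, against 18.1%, 26.1% and 29.2% of all genes.

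A difference of -1 or lower in all 3 was seen in SWEET14, a sugar transporter gene, and in AT5G20045, which has no described product. SWEET14 gave 67.1, 83.5 and 59.8 in Control, and its 9 libraries outside the rule lay between 11.5 and 24.7. AT4G36820, annotated as a calcium uniporter, was at 64.9% of Control in PQ + HL + HS but at 16.0% and 16.3% in the other 2. AT2G43860, a pectin lyase-like gene, was at 64.3%, 26.0% and 31.2%. At the other end, AT5G26290 (137%, 122% and 86.8%), IDL5, a gene for an abscission-type peptide (132%, 115% and 89.1%), AT2G26360, a mitochondrial carrier (107%, 119% and 105%), and CIB5, a cryptochrome-interacting transcription factor (91.9%, 115% and 123%), had the highest mean differences there among members with a Control mean of at least 50.

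These 3 treatments could be compared with each other by a test, since neither their libraries nor those comparisons entered the rule. The spread of each gene was, however, estimated from all 48 libraries, those used by the rule included. The standard errors and the calls therefore rest in part on the values that chose the members. Of the 125 members, 117 reached a mean of 10 over the 48 libraries and were tested by limma with all other genes. In Salt + PQ + HL + HS minus PQ + HL + HS, 12 members were higher (26.0% of all genes) and 33 lower (26.6%), which is 10.3% and 28.2% of the 117. In Salt + PQ + HL + HS minus Salt + PQ + HL, 9 members (7.69%) were higher and 9 (7.69%) lower, against 15.4% and 14.5% of all genes. In Salt + PQ + HL minus PQ + HL + HS, 9 members (7.69%) were higher and 24 (20.5%) lower, against 20.2% and 21.1%. The members' median differences were -0.26, -0.07 and -0.21.

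**Figure D5:**
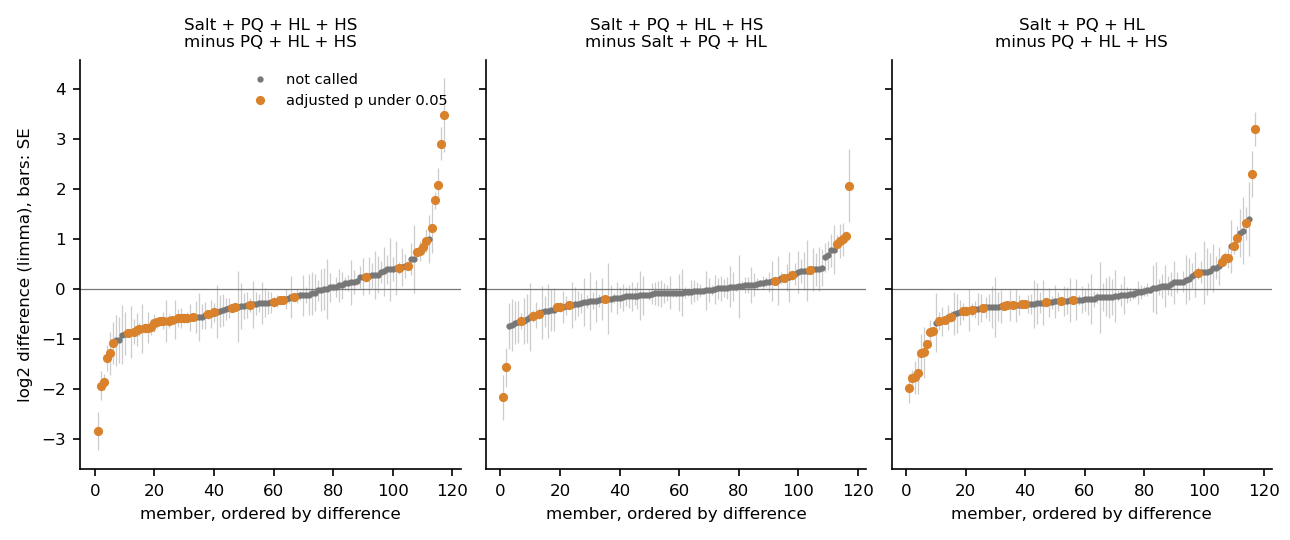
Log2 differences of the 117 tested members between the 3 treatments outside the rule, ordered within each panel, with bars of 1 SE and the members with an adjusted p under 0.05 in orange. Of the members called, 33 lie below and 12 above 0 on the left, 9 and 9 in the middle, and 24 and 9 on the right.

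Of the 3 treatments, the member iron genes IRT1, FRO2 and AT3G12900 had their lowest means in PQ + HL + HS. This did not hold for the whole iron list, where OPT3, for example, was lowest in Salt + PQ + HL + HS. IRT1 was 0.76 higher (SE 0.20, limma adjusted p = 0.00138) and FRO2 0.96 higher (SE 0.23, limma adjusted p = 0.000523) in Salt + PQ + HL + HS than in PQ + HL + HS. For Salt + PQ + HL minus PQ + HL + HS the differences were 0.61 (limma adjusted p = 0.0118) and 1.02 (limma adjusted p = 0.000374). AT3G12900 gave 43.7, 24.2 and 30.9 in the PQ + HL + HS libraries, 73.2, 96.3 and 90.7 in the Salt + PQ + HL libraries and 427, 396 and 285 in those of all 4 stresses. The difference between the outer groups was 3.47 (SE 0.74, limma adjusted p = 0.000104). That between the last 2 was 2.07 (limma adjusted p = 0.029), a call lost when any 1 library of these groups other than Salt + PQ + HL + HS replicate 3 was left out, at adjusted p = 0.052 to 0.0841, when no filter on low values was used, at 0.0514, or when the pseudocount was 0.1, at 0.182. The step from PQ + HL + HS to Salt + PQ + HL was 1.40 and did not pass (limma adjusted p = 0.129). Of the 20 genes tested on the iron list, 8 were higher and 8 lower in the first comparison (26.0% and 26.6% of all genes), 4 were higher and 12 lower in Salt + PQ + HL + HS minus Salt + PQ + HL (15.4% and 14.5%), and 11 were higher and 1 lower in the last (20.2% and 21.1%).

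PCC1 was also lowest in PQ + HL + HS. It gave 19.9, 26.8 and 21.4 in the PQ + HL + HS libraries and 190, 188 and 277 with Salt + PQ + HL, a higher level by limma (SE of the log2 difference 0.33, adjusted p = 8.85e-11), and 178, 181 and 167 in Salt + PQ + HL + HS, a difference of 2.91 from PQ + HL + HS (limma adjusted p = 5.5e-10). AT1G13480, a gene of unknown function, was 2.08 higher in Salt + PQ + HL + HS and 1.31 higher in Salt + PQ + HL than in PQ + HL + HS (limma adjusted p = 7.9e-07 and 0.0012). LURP1 was higher in Salt + PQ + HL, at 88.2, 101 and 152 against 10.3 to 43.3 in PQ + HL + HS and 15.6 to 39.2 in Salt + PQ + HL + HS, with differences of 2.30 and -2.16 (limma adjusted p = 5.2e-05 and 0.000203). MBP1 was 1.07 higher in Salt + PQ + HL + HS than in Salt + PQ + HL (limma adjusted p = 5.87e-13). The protease-like gene scpl18 was 0.99 higher there (limma adjusted p = 0.016), a call lost without Salt + PQ + HL + HS replicate 3 (0.0729), Salt + PQ + HL replicate 1 (0.0742) or replicate 3 (0.0612).

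EXPA17 was highest in PQ + HL + HS. It gave 354, 418 and 358 there, 190, 130 and 150 under Salt + PQ + HL and 56.8, 51.9 and 46.8 in Salt + PQ + HL + HS. It was lower by limma in the last group than in the first (-2.84, SE 0.39, adjusted p = 3.25e-08) and than in the second (-1.56, adjusted p = 0.00147). CYP702A5 was at Control level in PQ + HL + HS (872, 814 and 877) and at 29.3% and 27.8% of it in Salt + PQ + HL and with all 4 stresses, with differences from PQ + HL + HS of -1.78 and -1.86 (limma adjusted p = 2.17e-12 and 3.08e-13). AT4G36820 differed by -1.98 and -1.94 in the same comparisons (limma adjusted p = 2.59e-07 and 2.46e-07). AT4G13577, an uncharacterized gene, was 1.77 lower in Salt + PQ + HL than in PQ + HL + HS and 0.96 higher in Salt + PQ + HL + HS than in Salt + PQ + HL (limma adjusted p = 2.8e-05 and 0.025). AT4G29690, an alkaline phosphatase-like gene, was lower by 0.65 in the middle comparison (limma adjusted p = 0.00125).

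Of 19 glucosinolate genes tested, 16 were lower and 1 higher in Salt + PQ + HL + HS minus PQ + HL + HS, where 26.6% of all genes were lower and 26.0% higher. For Salt + PQ + HL minus PQ + HL + HS the counts were 15 lower and 1 higher (21.1% and 20.2% of all genes), and between the groups that hold Salt they were 4 lower and 0 higher (14.5% and 15.4%). IPMI1 was among the lower ones, with differences of -0.64 and -0.41 (limma adjusted p = 8.36e-05 and 0.0112). Of 9 type-A genes, 6, 6 and 4 were lower and 0 higher in the first, middle and last comparison, and ARR15 was not among those called. WRKY60 was lower, with differences of -0.57 and -0.55 (limma adjusted p = 2.09e-05 and 5.45e-05), while of 19 defence WRKY genes 6 were higher and 5 lower in the first comparison, near the shares of all genes, 2 were higher and 5 lower in the middle one and 9 were higher and 3 lower in the last. When only the libraries of the 2 groups compared entered the fit, 80, 42 and 61 members were called in place of 45, 18 and 33. The share of members called in the first comparison was then 68.4% against 58.9% of all genes, in place of 38.5% against 52.6%, so the members' standing against all genes turned with the fit.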

How the data were processed

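RNA was sequenced from 48 libraries of whole seedlings, 3 per group. The deposited values were normalised counts (a signal per gene): per the labels the authors checked single-end reads with FastQC 0.11.7, mapped them to TAIR10 with STAR 2.4.0.1 and normalised with DESeq2 1.20.0. The library strand was not stated. Whole reads were recovered from the steps of these counts, with 100% of values whole within 0.01 reads. Acidity and cadmium treatments of the study were not used here.

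Groups followed the labels. Members and gene lists were chosen with earlier results of these data known. Differences are of log2(mean + 1). The 3 comparisons among treatments outside the rule used limma 3.58.1 with a trend on log2(normalised count + 1), all 48 libraries, 21536 genes with a mean of at least 10 and Benjamini-Hochberg adjustment over all of them, with adjusted p under 0.05 as the threshold. A fold on this scale understates the change of low genes. The code was tested on simulated data. Alternatives were pseudocounts of 0.1 and 10, other Control minimums, other scalings, no filter, a replicate block, only the 2 groups compared, each replicate left out, and edgeR 4.0.16 (quasi-likelihood) and DESeq2 1.42.0 on the recovered reads. Named genes were the 10 members with the lowest median difference and a Control mean of at least 200, the 6 with the highest Control mean, all members on the gene lists, the 3 largest called differences in each direction of each tested comparison, the 4 lowest and 4 highest mean differences in the treatments outside the rule (Control mean of at least 50) and the 3 genes on each side of the threshold. Other members named for their role, family or position were chosen after their values were seen. Genes were placed by locus ID in TAIR10.1 (RefSeq), a later release than the one used for mapping. R 4.3.3 and Python 3.11.15 were used.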

Additional observations from a re-analysis of the deposited data

How the results depend on the processing

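The set grew or shrank with the scale. Of the 125 genes, 81 were found with a pseudocount of 10, whereas 222 genes, with all 125 among them, qualified when each library was scaled to the same total. That scaling moved the median of all genes to between -0.05 and -0.90 in the 12 treatments, and the members' medians relative to it stayed at -1.45 to -2.64. Other choices gave 105 to 144 genes. Leaving out a Control replicate gave 123 to 135 and leaving out a treatment replicate 115 to 118. In Salt + PQ + HL + HS the members at -1 or lower were 10 with a pseudocount of 10. Leaving out 1 replicate gave 14 to 17, 14 to 17 and 16 to 18 in the 3 treatments outside the rule.

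In the 3 tested comparisons, in the order of the report, 80, 42 and 61 members were called when the fit held just the 2 groups, against 45, 18 and 33, and edgeR called 70, 25 and 48 and DESeq2 64, 23 and 42. The shares of members called were 68.4%, 35.9% and 52.1% in the fit of 2 groups (58.9%, 35.5% and 48.3% of all genes), 56.0%, 20.0% and 38.4% in edgeR (52.9%, 30.7% and 41.9%) and 51.2%, 18.4% and 33.6% in DESeq2 (47.4%, 28.5% and 39.6%), against 38.5%, 15.4% and 28.2% as reported (52.6%, 29.8% and 41.3%). Leaving out 1 replicate gave 37 to 41, 13 to 16 and 28 to 32. The replicate block gave 45, 18 and 33, and the numbers did not pair the samples, since the mean correlation of same-numbered deviations was -0.000294 and 6 of 360 pairs exceeded 0.1. Of the tested differences of named members under the alternatives, 242 kept their call, 10 lost it and 0 reversed. The causes of these shifts were not tested. Members with Control means under 50, 20 of 125, rest on few reads, and 28 had a library at 0.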
